A study of Mus musculus with 32 samples.

Results

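The constitutive proteasome genes were followed in 32 mouse livers, as the genes whose symbol begins with Psma, Psmb, Psmc or Psmd and a number, measured by a probe set annotated to 1 gene alone. The inducible catalytic subunits Psmb8, Psmb9 and Psmb10 were left out of the set. The rule took 35 genes with 45 probe sets, out of 8251 genes that probe sets of the array name singly, and for the 6 genes with more than 1 probe set the one with the highest mean over the 32 arrays was used. By their symbols 14 genes belonged to the core particle, 7 alpha and 7 beta subunits, and 21 to the regulatory side. The 21 comprised 6 ATPases (Psmc1 to Psmc6), 11 non-ATPase subunits, 3 chaperones that help to assemble the ATPase ring and leave the finished particle (Psmd5, Psmd9 and Psmd10), and Psmc3ip. Psmc3ip is a recombination factor of meiotic cells that meets the symbol rule without being a proteasome subunit, so it is reported apart.

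The livers came from male C57BL/6 mice 3 months old, homozygous for a floxed allele of Rps6, which encodes a protein of the small ribosomal subunit. Cre plus mice carried the Mx-Cre transgene and Cre minus mice did not. Mx-Cre is driven by a promoter that answers to interferon, and deletion was set off by injecting polyinosinic-polycytidylic acid, a double-stranded RNA that induces interferon. Livers were sampled 0, 20, 30 or 40 h after partial hepatectomy, an operation in which some lobes are cut away and the remnant regrows. Groups of Cre plus mice held 4, 4, 3 and 5 livers at 0, 20, 30 and 40 h, and groups of Cre minus mice held 4 livers at each time. Whether Cre minus mice were injected, and how long before surgery injection took place, is information not given in the sources used here, and livers of mice with a sham operation were not analysed here. Nothing in the labels ties each sample to a separate mouse, and the p-values speak only of spread among these samples, which may be technical. In whole liver, fewer cells of a type and less RNA per cell cannot be told apart.

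The proteasome is the protease that degrades proteins tagged with ubiquitin in the cytosol and nucleus. Its core particle is a barrel of alpha and beta rings whose beta subunits Psmb5, Psmb6 and Psmb7 cut peptides. The regulatory particle caps the barrel: its base of ATPases unfolds substrates and threads them in, and its lid removes the ubiquitin chains. Mammalian cells coordinate the transcription of these subunits, among other factors through Nfe2l1, and during an interferon response Psmb8, Psmb9 and Psmb10 take the place of the constitutive catalytic subunits.

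The deposited values were log2 expression values from 2.3 to 14.12, with array medians of 5.88 to 5.99, and precision was limited by the number of arrays. The probe set of Rps6, which it shares with the pseudogene Rps6-ps4, had group means of 6.81 to 7.23 in Cre plus livers and 11.11 to 11.57 in Cre minus livers. The labels place 15 arrays in batch PHX2 and 17 in batch PHX3. Every group had arrays in both, with 1 PHX3 array in the Cre plus 30 h group (replicate A) and 1 PHX2 array in the Cre minus 40 h group (replicate D). Of the livers, 3 had a mean correlation with their own group under 0.95: Cre plus 30 h replicate A, Cre plus 40 h replicate D and Cre minus 30 h replicate C. Hepatocyte markers (7 measured genes) averaged 11.62 to 11.82 in Cre plus groups and 11.69 to 11.80 in Cre minus groups. All comparisons come from 1 limma fit over the 32 arrays, with batch as a term, and a gene is called when its Benjamini-Hochberg adjusted p over 9249 tested probe sets is under 0.05.

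Of the 35 genes, 34 were tested. Psmc4, an ATPase, was not, because its probe set exceeded the 30th percentile of its array on none of the 32 arrays, with group means of 4.35 to 4.44 in Cre plus livers and 4.35 to 4.45 in Cre minus livers. Psmc3ip entered through 4 arrays, of which 3 were Cre minus 40 h livers, the group in which it was highest, and on 0 of the 5 Cre plus 40 h arrays did it exceed the percentile. It had to differ at 40 h to be tested, so nothing is read from its calls.

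Most of the genes went up and down together from liver to liver. The mean of the 14 core genes and the mean of the 20 tested regulatory genes had a Pearson correlation of 0.936 over the 32 livers, and of 0.976 for deviations from group means. These points share an array and a scale, so the values are a description. A single gene correlated with the mean of the others at a median of 0.760, and 27 of 34 genes lay above 0.5. The deubiquitinase Psmd14, which cleaves ubiquitin chains from substrates, stood highest at 0.955. Psmd8 at 0.428 (0.137 within groups), Psmd3 at 0.413, Psmd11 at 0.318, Psmd2 at 0.066 and Psmc3ip at -0.017 stood among the lowest. Psmd8, Psmd3 and Psmd11 are lid subunits and Psmd2 is the large scaffold of the base. The probe set of Psmd2 was dim, with a mean of 5.65 over the arrays, under the array medians of 5.88 to 5.99.

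**Figure D1:**
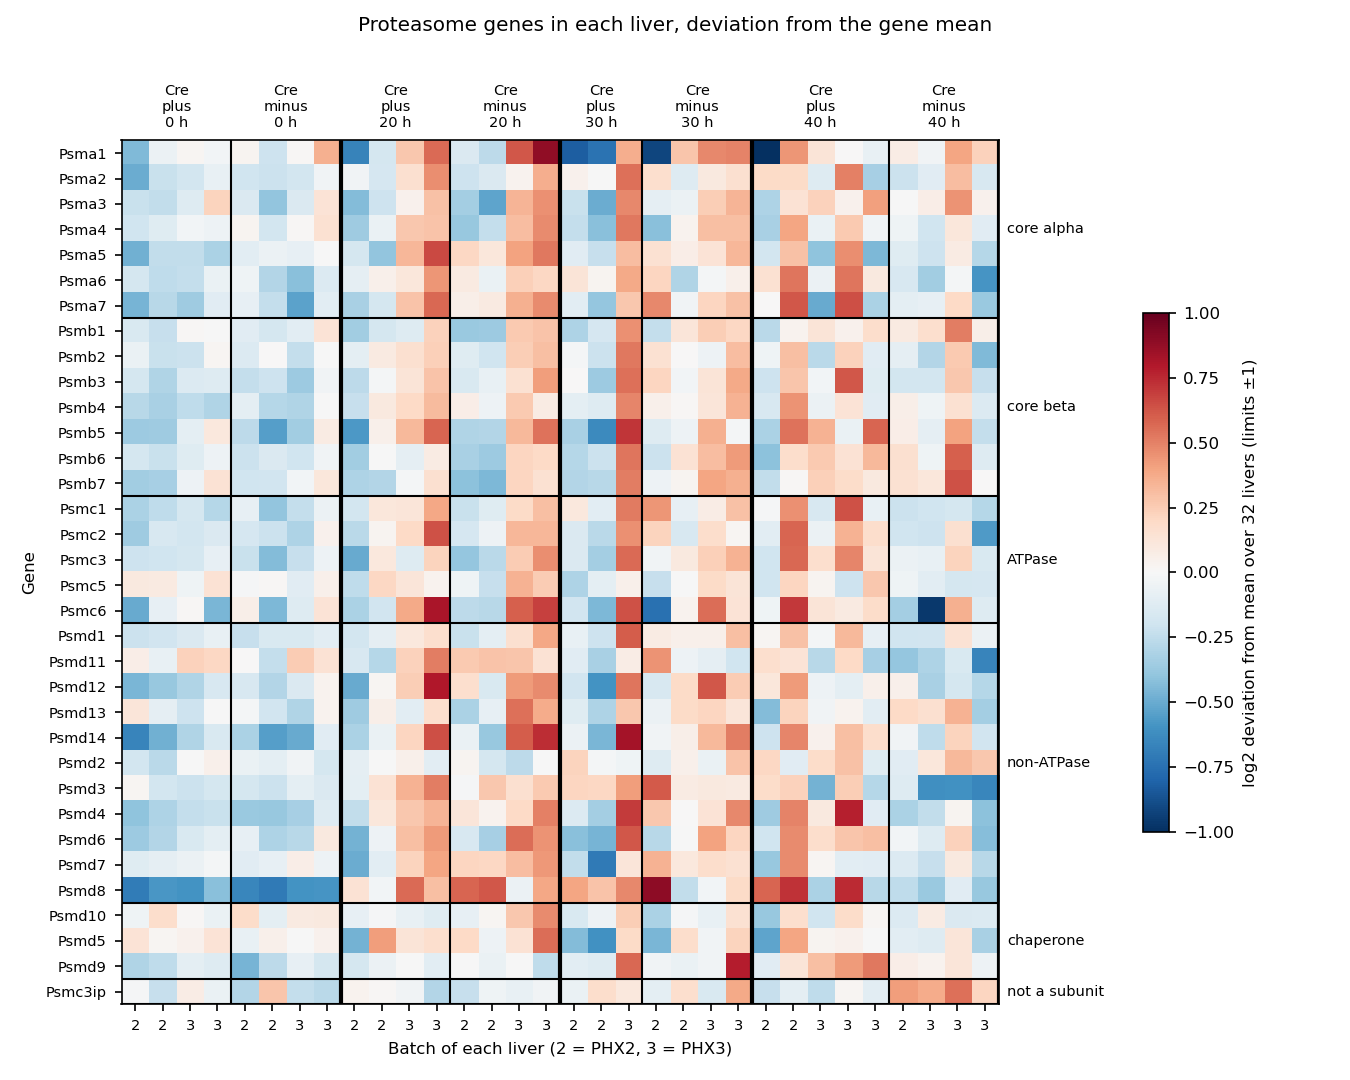
Each cell is a gene's log2 value in 1 liver minus that gene's mean over the 32 livers, with genes by role down the page and livers by time and genotype across, PHX2 before PHX3 within a group. Columns tend to be of 1 colour from top to bottom, Psmd8 is low in all 8 livers at 0 h, and Psmc3ip is high in the 4 Cre minus livers at 40 h.

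Batch moved with this shared variation. With group in the model, 16 of 34 genes were called higher in PHX3 than in PHX2 and 0 lower (limma). Over all 9249 tested probe sets, 904 (9.77%) were called higher in PHX3 and 1590 lower. Among the 16 genes the largest difference was that of Psma1, an alpha subunit, at 0.58. Psmd8 did not share it, at -0.10. The mean of the proteasome genes over livers had a correlation of -0.142 with the 3′ minus 5′ signal of the Actb control probe sets, a measure of RNA integrity. The part of batch in each result is given below as values within PHX2 and within PHX3.

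**Figure D2:**
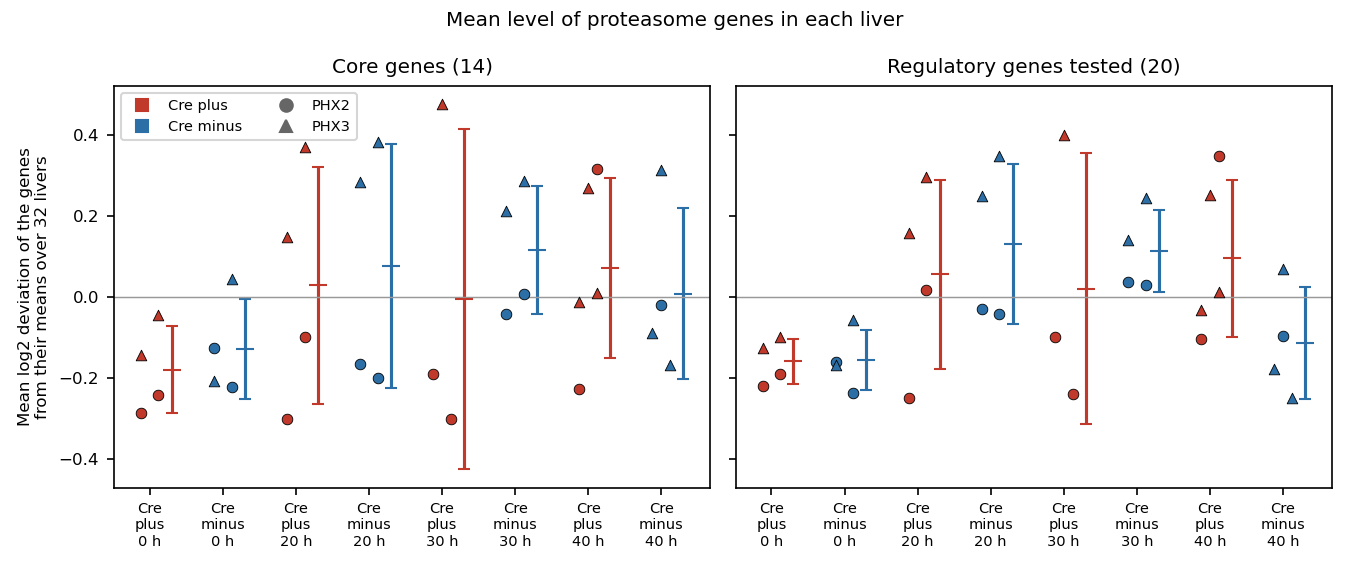
Each point is 1 liver: the mean log2 deviation of the 14 core genes (left) or the 20 tested regulatory genes (right) from their means over 32 livers, circles PHX2 and triangles PHX3, with the group mean and SD beside the points. At 20 h and 30 h the PHX3 livers lie above the PHX2 livers of the same group in both panels.

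In Cre plus livers, few proteasome genes were called against 0 h: 1 of 34 at 20 h, 1 at 30 h and 3 at 40 h. The median differences were 0.19, 0.24 and 0.25, of which that of 30 h rested on 1 liver, replicate A, and was 0.06 without the livers that correlate under 0.95. The comparisons of 20, 30 and 40 h within a genotype share its 4 livers of 0 h. At 20 h, 1 of 34 genes was called higher, Psmd8, where 3.55% of all tested probe sets were, and 27 of 34 differences from 0 h were positive, where the median of all tested probe sets was -0.02 with 4164 of 9249 positive. Groups did not overlap in 2 genes, Psmb4 and Psmd8, against 7.04% of all tested probe sets. The median was 0.09 within PHX2 and 0.34 within PHX3. Core genes had a median of 0.22 with 13 of 14 positive, and regulatory genes a median of 0.13 with 14 of 20 positive, while the 3 chaperones ranged from -0.09 to 0.11. Without Cre plus 20 h replicate C, 4 genes were called, with Psmb4, Psmd3 and Psmd12 joining, and without replicate D 2, with Psma5 joining. The count was 0 without Cre plus 0 h replicate C or Cre plus 20 h replicate A or B, and 2, with Psmb4, without the 3 livers under 0.95.

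At 30 h, 1 of 34 genes was called higher in Cre plus livers, Psmd8, against 3.56% of all tested probe sets. Of the 34 differences from 0 h, 29 were positive. Groups did not overlap in 7 genes, Psma2, Psma5, Psma6, Psmb4, Psmc1, Psmd3 and Psmd8, against 10.9% of all tested probe sets. The median was 0.04 within PHX2, which held 2 of the 3 livers, and 0.62 within PHX3, which held Cre plus 30 h replicate A alone. That liver stood 0.43 above the mean over livers in its average of the 34 genes, and the other two at -0.14 and -0.27. Without the 3 livers that correlate under 0.95, among them replicate A, the median was 0.06, and 2 genes were called: Psmd8, higher by 0.90, and the chaperone Psmd5, at -0.59. Without Cre plus 30 h replicate C, Psmd14 was called as well as Psmd8, and without replicate A the count was 0.

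At 40 h, 3 of 34 genes were called higher in Cre plus livers than at 0 h, Psmd8, Psma6 and Psmd9, and 0 lower, against 3.59% of all tested probe sets called higher. The median difference was 0.25 with 27 of 34 positive, 0.29 within PHX2 and 0.18 within PHX3. Groups did not overlap in 6 genes, Psma6, Psmb4, Psmc1, Psmc2, Psmd8 and Psmd12, where 4.41% of all tested probe sets did the same. Core genes had a median of 0.23, and the 16 tested regulatory subunits, leaving out the chaperones and Psmc3ip, a median of 0.37. The count was 5 without Cre plus 40 h replicate A, when Psmc1 and Psmd14 joined, and also 5 without replicate C, when Psma2, Psmc1 and Psmd4 joined and Psmd9 was lost. It was 3 without replicate D, when Psmd4 joined and Psma6 was lost, and 1 without any single Cre plus 0 h liver, or without Cre plus 40 h replicate B or E. Without the 3 livers under 0.95 it was 6, with Psmb4, Psmd4 and Psmd14 joining.

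In Cre minus livers, 1 of 34 genes was called against 0 h at each of 20, 30 and 40 h, and the median difference of the 34 genes was 0.24, 0.24 and 0.02. At 20 h, 1 of 34 genes was called higher, Psmd8, and 0 were called lower, where 3.33% of all tested probe sets were called higher. The median of 0.24 is a ratio of 1.18, and 32 of 34 genes were positive, while the median of all tested probe sets was -0.03 with 4055 of 9249 positive. In 6 genes, Psma5, Psma7, Psmd3, Psmd4, Psmd7 and Psmd8, every Cre minus liver at 20 h lay above every one at 0 h, which 8.47% of all tested probe sets did. The median difference was 0.05 within PHX2 and 0.40 within PHX3. Core genes had a median of 0.20 and regulatory genes a median of 0.25. Psmd14 was called too without Cre minus 20 h replicate D, for a count of 2, and both Psmd4 and Psmd14 without the 3 livers that correlate under 0.95, for a count of 3.

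At 30 h, 1 of 34 genes was again called higher in Cre minus livers, Psmd8, and 0 lower, against 1.01% of all tested probe sets called higher. Of the 34 differences, 31 were positive, with all 14 core genes among them. Groups did not overlap in 12 genes, all higher at 30 h, where 4.30% of all tested probe sets did the same. These were Psma5, Psma7, Psmb3, Psmb4, Psmc3, Psmd1, Psmd3, Psmd4, Psmd7, Psmd8, Psmd9 and Psmd14, from both rings of the core and from the base and lid. Here the 2 batches were closer, with medians of 0.21 within PHX2 and 0.30 within PHX3. Without the 3 livers that correlate under 0.95 the median was 0.27 and 0 genes were called by limma, against 1 with all livers. In that fit 11 genes were higher with an unadjusted p under 0.05, where 5.86% of all tested probe sets were. The count was 2 without Cre minus 30 h replicate A, when Psmd9 joined, and it was 0 without any single Cre minus 0 h liver or without Cre minus 30 h replicate B or C, when Psmd8 was lost.

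At 40 h the median difference in Cre minus livers was 0.02, with 17 of 34 genes positive. The 1 gene called higher was Psmc3ip, which is no subunit and had to differ to pass the filter, against 2.32% of all tested probe sets called higher, and 0 were called lower. Among the subunits, those of the beta ring had a median of 0.19 with 6 of 7 positive, and the tested ATPases a median of -0.09 with 1 of 5 positive. Psmd11, a lid subunit, differed by -0.44 ± 0.16 (SE, unadjusted p = 0.0127, limma adjusted p = 0.139) and Psmd3, another, by -0.33 ± 0.15 (limma adjusted p = 0.282). Groups did not overlap in 2 genes, Psmd8 and Psmd9, where 6.24% of all tested probe sets lay wholly higher at 40 h.

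Psmd8, the lid subunit, had the largest difference of the 34 genes in 5 of the 6 comparisons with 0 h and was called in those 5. Its promoter, 250 bases before to 50 after the start in RefSeq (GRCm38.p6, chr7:29180624-29180923, minus strand), is shown because of these calls. It is printed without capitals, which mark 2 motifs further below, because neither was found in it.
Psmd8 promoter: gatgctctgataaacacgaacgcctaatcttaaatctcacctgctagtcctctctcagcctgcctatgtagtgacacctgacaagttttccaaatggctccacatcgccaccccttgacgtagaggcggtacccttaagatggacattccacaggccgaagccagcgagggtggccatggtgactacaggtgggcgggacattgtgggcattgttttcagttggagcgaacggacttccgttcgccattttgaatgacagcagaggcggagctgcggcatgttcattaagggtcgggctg
The values of Psmd8 in Cre plus livers, as log2 expression, were 8.24, 8.42, 8.13, 8.26 at 0 h, then 9.40, 9.13, 8.98, 8.81 at 20 h, then 9.32, 9.23, 9.12 at 30 h, and finally 8.52, 9.58, 8.56, 9.42, 9.56 at 40 h. The values in Cre minus livers were 8.24, 8.19, 8.25, 8.13 at 0 h, then 8.78, 9.22, 9.42, 9.46 at 20 h, then 8.81, 9.03, 9.73, 8.59 at 30 h, and finally 8.47, 8.72, 8.46, 8.58 at 40 h. The 8 livers at 0 h lay within 8.13 to 8.42, and every later liver lay above them. At 40 h the Cre plus livers split, with 2 of 5 close to the Cre minus livers of that time and the rest at 9.42 or more.

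In Cre plus livers Psmd8 rose by 0.82 ± 0.22 at 20 h (SE, limma adjusted p = 0.0191), by 0.94 ± 0.24 at 30 h (adjusted p = 0.0131) and by 0.87 ± 0.21 at 40 h (adjusted p = 0.00858). In Cre minus livers it rose by 1.02 ± 0.22 at 20 h, a 2.03-fold change (limma adjusted p = 0.00611), and by 0.84 ± 0.22 at 30 h (adjusted p = 0.0323), and at 40 h its difference was 0.38. Both batches had positive differences, at 20 h 0.70 within PHX2 and 0.94 within PHX3 in Cre plus livers, against 1.28 and 0.76 in Cre minus livers. The limma calls in Cre plus livers at 40 h and in Cre minus livers at 20 h held when any single liver was left out, the first being lost when the fit used only the arrays compared (adjusted p = 0.0795). In Cre plus livers the limma call at 20 h was lost without 0 h replicate C (adjusted p = 0.0661), 20 h replicate A (0.107) or 20 h replicate B (0.0643), and that at 30 h without 30 h replicate A (0.0633). The call in Cre minus livers at 30 h was lost without any single Cre minus 0 h liver (A, B, C or D, adjusted p of 0.0716 to 0.0872) and without Cre minus 30 h replicate B (0.0803) or C (0.152, a difference of 0.62), with limma.

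**Figure D3:**
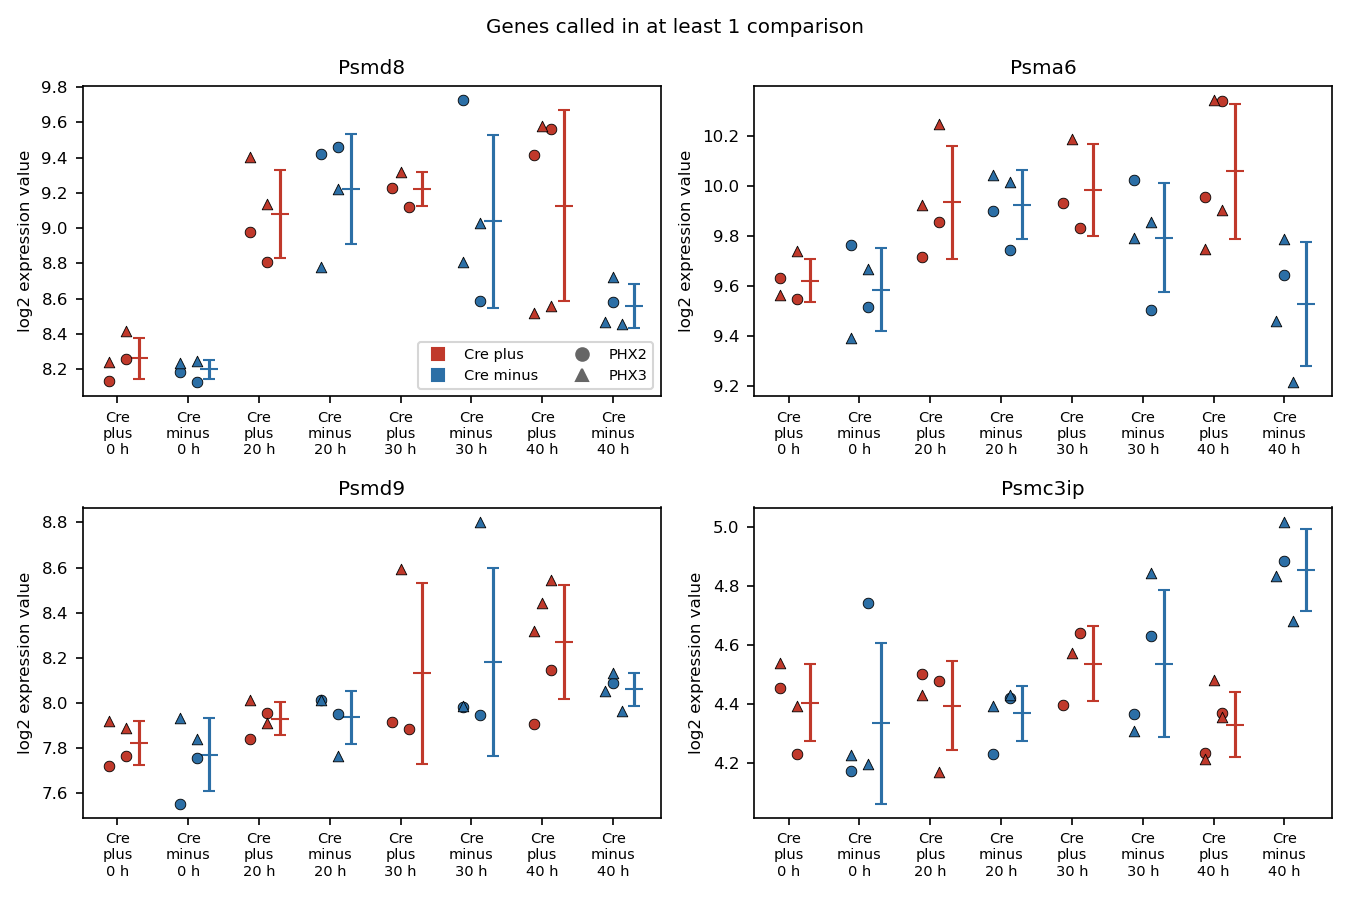
Points are log2 expression values in single livers by group, circles PHX2 and triangles PHX3, with the group mean and SD beside them, for the genes called in at least 1 comparison. Psmd8 is within 8.13 to 8.42 in the 8 livers at 0 h and at 8.46 or more in every later liver.

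Among the alpha subunits, which gate the entrance of the barrel, Psma6 was the member called. RefSeq gives Psma6 2 promoter windows. The first (GRCm38.p6, chr12:55383972-55384271, plus strand) holds the CCAAT box at 2 places, in capitals, one of them as its reverse complement ATTGG, and the second (chr12:55398575-55398874) holds neither motif.
Psma6 promoter: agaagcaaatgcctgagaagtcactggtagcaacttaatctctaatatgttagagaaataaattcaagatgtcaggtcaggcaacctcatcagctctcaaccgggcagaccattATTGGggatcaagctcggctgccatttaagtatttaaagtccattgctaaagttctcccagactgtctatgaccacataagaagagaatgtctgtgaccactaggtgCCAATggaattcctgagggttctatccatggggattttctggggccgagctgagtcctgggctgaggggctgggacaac
The values of Psma6 in Cre plus livers were 9.57, 9.74, 9.63 and 9.55 at 0 h and 9.75, 10.34, 9.90, 9.96 and 10.34 at 40 h. In Cre minus livers they were 9.39, 9.77, 9.67 and 9.51 at 0 h and 9.46, 9.79, 9.22 and 9.65 at 40 h. All 5 Cre plus livers at 40 h lay above the Cre plus livers at 0 h, and 1 of the 5, replicate A, lay below the highest Cre minus liver of 40 h.

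Psma6 rose by 0.43 ± 0.13 in Cre plus livers at 40 h against 0 h (SE, limma adjusted p = 0.0426), 0.56 within PHX2 and 0.35 within PHX3. The call was lost with limma without any single Cre plus 0 h liver (A, B, C or D) and without Cre plus 40 h replicate B, D or E, with adjusted p up to 0.125 and differences from 0.34. It was also lost in 5 of 9 other settings, among them no filter, median centring and array weights. Psma7, an alpha subunit with differences of 0.48 in Cre minus livers at both 20 h and 30 h (limma adjusted p = 0.187 and 0.263), and Psma5 at 0.37 and 0.23, were among the genes whose groups did not overlap there. Psma1, another alpha subunit, had the widest spread of the alpha ring, with an SD over the 32 livers of 0.47.

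The 3 catalytic beta subunits were not called in any comparison. The promoter of Psmb5, which carries the chymotrypsin-like activity (RefSeq, GRCm38.p6, chr14:54617946-54618245, minus strand), is shown because it holds the TGACNNNGC motif, in capitals, beginning at base 204 of the 300.
Psmb5 promoter: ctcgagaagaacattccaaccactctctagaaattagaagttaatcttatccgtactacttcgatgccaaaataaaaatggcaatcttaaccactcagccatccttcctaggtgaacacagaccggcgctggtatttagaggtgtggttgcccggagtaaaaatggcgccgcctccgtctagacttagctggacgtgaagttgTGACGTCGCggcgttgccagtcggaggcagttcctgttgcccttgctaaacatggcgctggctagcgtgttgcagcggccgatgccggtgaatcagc
In Cre plus livers Psmb5 had values of 9.06, 8.64, 9.29, 8.39 and 9.25 at 40 h, against 8.61, 8.81, 8.34 and 8.35 at 0 h, and the 2 groups overlap. The difference was 0.35 ± 0.20 (SE, limma adjusted p = 0.289). Psmb6, the caspase-like subunit, differed by 0.21 and Psmb7, the trypsin-like subunit, by 0.17 in the same comparison. Psmb4, a beta subunit without catalytic activity, had differences of 0.38, 0.40 and 0.33 in Cre plus livers at 20 h, 30 h and 40 h, and none of its groups there overlapped with 0 h. The limma adjusted p of Psmb4 was 0.0584, 0.0666 and 0.0921 at these times.

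In the lid, Psmd14 followed the shared pattern most closely. The promoter of Psmd14 (RefSeq, GRCm38.p6, chr2:61711444-61711743, plus strand) held CCAAT or its complement at 3 places, of which the last 2 overlap.
Psmd14 promoter: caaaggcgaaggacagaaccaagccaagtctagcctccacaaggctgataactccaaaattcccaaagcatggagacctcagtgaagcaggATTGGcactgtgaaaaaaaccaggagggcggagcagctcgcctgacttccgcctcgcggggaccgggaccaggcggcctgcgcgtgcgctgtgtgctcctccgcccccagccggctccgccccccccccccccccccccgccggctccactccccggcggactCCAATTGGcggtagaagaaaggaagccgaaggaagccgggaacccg
Cre plus livers had Psmd14 values of 7.33, 7.48, 6.97, 7.15 at 0 h, then 7.85, 8.28, 7.32, 7.57 at 20 h, then 8.47, 7.58, 7.18 at 30 h, and finally 7.68, 7.94, 7.81, 7.43, 8.12 at 40 h. In Cre minus livers it measured 7.13, 7.32, 7.52, 7.08 at 0 h, then 8.24, 8.37, 7.57, 7.26 at 20 h, then 7.96, 8.15, 7.60, 7.70 at 30 h, and finally 7.38, 7.86, 7.44, 7.60 at 40 h. The groups overlap at 20 h in both genotypes, and in Cre minus livers all 4 values of 30 h exceeded those of 0 h. Its differences from 0 h were 0.52 to 0.57 in Cre plus livers and 0.60, 0.59 and 0.21 at 20, 30 and 40 h in Cre minus livers, and the lowest limma adjusted p was 0.0545. Within PHX2 the 20 h difference in Cre minus livers was 0.21 and within PHX3 it was 0.98.

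Psmd4, a subunit that binds ubiquitin chains, had differences from 0 h in Cre plus livers of 0.41 at both 20 h and 30 h and 0.45 at 40 h. They were, in Cre minus livers, 0.52 at both 20 h and 30 h and close to 0 at 40 h. Its limma adjusted p was at least 0.0702 in each of these. The groups did not overlap at 20 h and 30 h in Cre minus livers. Psmd2, the scaffold at the base, stayed between -0.01 and 0.22 in all 6 comparisons with 0 h, as measured by a dim probe set (mean of 5.65).

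Psmd9, an assembly chaperone of the base, was called once. Its promoter (RefSeq, GRCm38.p6, chr5:123227940-123228239, plus strand) holds TGACNNNGC from base 220, in capitals.
Psmd9 promoter: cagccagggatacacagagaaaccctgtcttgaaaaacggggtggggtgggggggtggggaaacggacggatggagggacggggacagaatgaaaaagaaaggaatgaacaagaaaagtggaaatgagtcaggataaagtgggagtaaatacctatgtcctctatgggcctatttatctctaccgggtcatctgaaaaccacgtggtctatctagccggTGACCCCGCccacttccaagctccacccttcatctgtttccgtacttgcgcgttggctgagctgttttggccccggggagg
In Cre plus livers Psmd9 measured 8.32, 8.44, 8.54, 7.91 and 8.14 at 40 h, against 7.92, 7.89, 7.72 and 7.77 at 0 h, so that the lowest liver of 40 h, replicate D, lay just within the 0 h range. The rise was 0.43 ± 0.13 (SE, limma adjusted p = 0.0362), 0.28 within PHX2 and 0.53 within PHX3. The limma call was lost without any single Cre plus 0 h liver (A, B, C or D) or without Cre plus 40 h replicate B, C or E, with adjusted p up to 0.0932 and differences from 0.38, and with no batch term. The other chaperones, Psmd5 and Psmd10, differed by -0.11 and -0.07 there.

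Between genotypes, no proteasome gene was called at 0, 20 or 30 h by limma with equal weights, while with array weights 9 were called at 30 h, all lower in Cre plus livers, among them Psma1 at -0.85 (limma adjusted p = 0.00129). At 0 h the median difference of Cre plus from Cre minus livers was -0.02 with 16 of 34 positive, 0 genes were called where 0.0649% of all tested probe sets were, and 0 had an unadjusted p under 0.05 where 1.51% did. At 20 h the median was -0.06, with 11 of 34 positive, 0 genes called against 0.292%, and 0 with an unadjusted p under 0.05 against 4.42%. At 30 h the median was -0.05 with 10 of 34 positive, 0 genes were called against 0.281%, and 1 had an unadjusted p under 0.05 against 11.3%. That gene was Psmd7, a lid subunit, with a difference of -0.45 ± 0.17 (SE, limma adjusted p = 0.280).

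The 2 batches had opposite signs at 30 h. The median genotype difference was -0.22 within PHX2, with 2 livers in each group, and 0.23 within PHX3, where Cre plus 30 h replicate A was the single Cre plus liver. Without the 3 livers that correlate under 0.95 the median was -0.26, and 2 genes were called lower in Cre plus livers, Psma1 at -0.96 and Psmd5 at -0.62.

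At 40 h most regulatory subunits had positive differences between Cre plus and Cre minus livers, while the core genes lay closer to 0. The median difference of the 34 genes was 0.19 with 27 positive, against a median of -0.01 with 4460 of 9249 positive over all tested probe sets. The tested ATPases had a median of 0.41 and 5 of 5 were positive, from 0.16 for Psmc5 to 0.55 for Psmc6. The non-ATPase subunits had a median of 0.31 with 9 of 11 positive, the alpha subunits 0.16 with 6 of 7 and the beta subunits 0.06 with 4 of 7. Core genes had a median of 0.13 and regulatory genes of 0.29, or 0.33 for the 16 regulatory subunits alone. With single livers left out, the median ran from 0.0062 to 0.22 for core genes and from 0.18 to 0.37 for regulatory genes, both lowest without Cre plus 40 h replicate E. Within PHX2 the medians were 0.08 for core and 0.20 for regulatory genes, and within PHX3 0.03 and 0.24. The difference between the classes was not tested.

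By limma 1 of 34 genes was called higher at 40 h, Psma6, against 2.28% of all tested probe sets, and 1 lower, Psmc3ip, which had to differ to pass the filter, against 3.07%. Psma6 was higher by 0.54 ± 0.14 (SE, adjusted p = 0.0158), 0.50 within PHX2 and 0.51 within PHX3. Its limma call was lost without Cre plus 40 h replicate B (adjusted p = 0.0561) or E (0.0524) and without Cre minus 40 h replicate A (0.0609) or C (0.0956, a difference of 0.43), as well as in the fit to only the arrays compared (0.188). Psmd3, a lid subunit, differed by 0.47 ± 0.15 (adjusted p = 0.0579). Of the ATPases, Psmc1, Psmc2 and Psmc6 had differences of 0.41, 0.42 and 0.55 with unadjusted p of 0.00946, 0.0142 and 0.0369 from limma. Psmc1 was the 1 gene in which every Cre plus liver exceeded every Cre minus liver, where 3.03% of all tested probe sets did so, with 8.29 to 9.09 in Cre plus livers and 8.16 to 8.27 in Cre minus livers. Without Cre plus 40 h replicate A, which had the lowest Psma6 of its group, 5 genes were called, Psmc1, Psmd3 and Psmd8 joining as higher. Psmd3 was also called without Cre plus 40 h replicate C or Cre minus 40 h replicate D. Without the 3 livers under 0.95, 3 genes were called, with Psmd4 higher by 0.55.

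At 40 h Psmc3ip measured 4.21, 4.48, 4.36, 4.24 and 4.37 in Cre plus livers, against 4.83, 5.02, 4.68 and 4.89 in Cre minus livers. The 30th percentile of the arrays was 4.67 to 4.80, and the gene exceeded it on 0 of 5 arrays of Cre plus livers and 3 of 4 arrays of Cre minus livers, so no size or test is given for it.

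**Figure D4:**
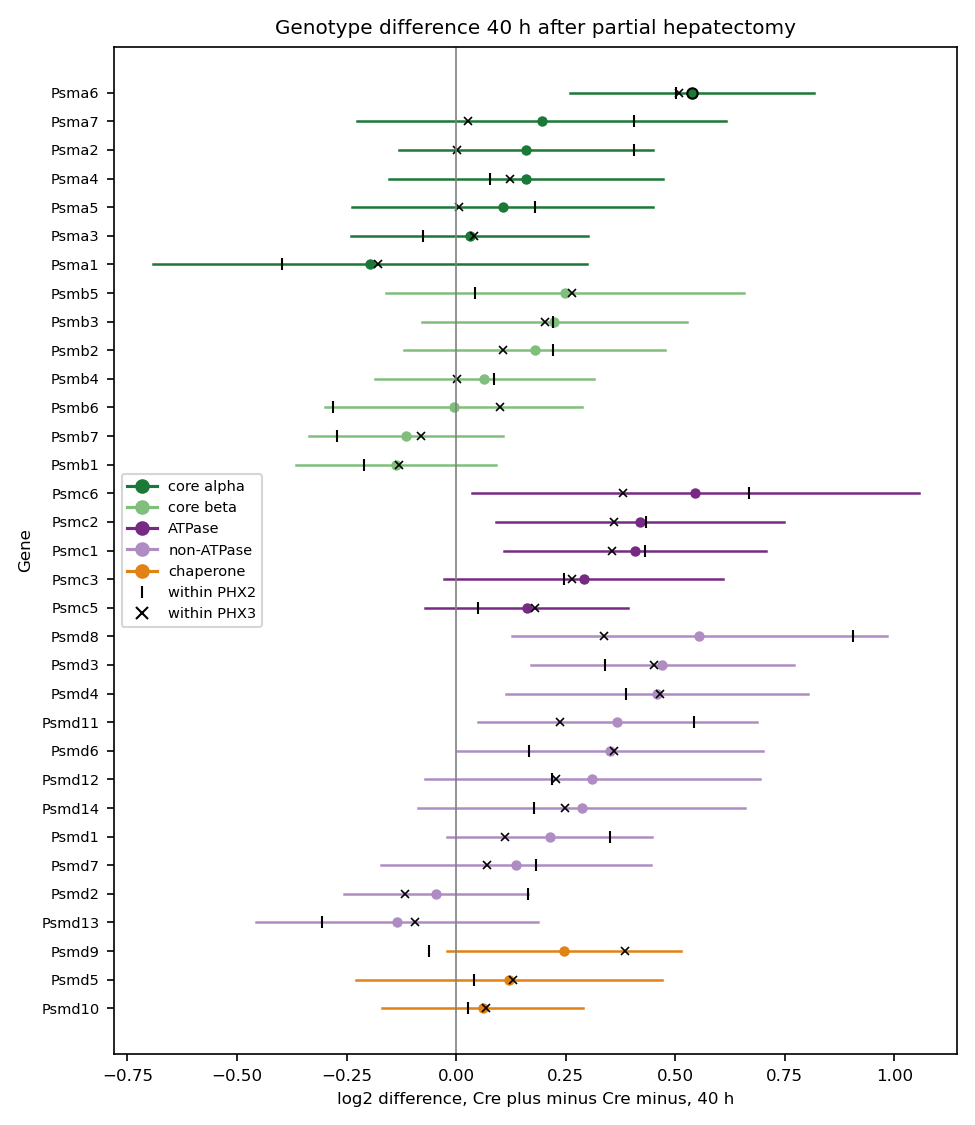
Circles are log2 differences, Cre plus minus Cre minus at 40 h, from the fit over 32 arrays, with 95% confidence intervals as lines, and bars and crosses are the differences within PHX2 and PHX3. Psma6, outlined in black as called, is at 0.54, Psmc3ip is left out, and the 5 ATPases lie between 0.16 and 0.55.

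The marker genes of Kupffer cells and macrophages had mean levels per liver that did not overlap between genotypes at any of the 4 times, with Cre plus livers below. At 0 h the mean level of the 9 measured markers was 7.36 to 7.91 in Cre plus livers and 8.002 to 8.30 in Cre minus livers. It was 6.70 to 7.34 in Cre plus livers and 7.85 to 8.15 in Cre minus livers at 20 h, and at 30 h 6.78 to 7.44 in Cre plus livers and 7.501 to 7.99 in Cre minus livers. At 40 h 6 of the 9 were called lower in Cre plus livers and 0 higher. Of all tested probe sets, 3.07% were called lower in that comparison and 2.28% higher. The mean level of the 9 markers was then 6.74 to 7.44 in Cre plus livers and 7.57 to 8.23 in Cre minus livers. Of 4 measured erythroid genes, 2 were called lower at 40 h, with mean levels of 6.40 to 7.72 in Cre plus livers and 8.22 to 8.87 in Cre minus livers. Their ranges did not overlap at 20 h either, 6.25 to 7.10 in Cre plus livers and 7.13 to 9.12 in Cre minus livers, or at 30 h, 6.16 to 6.96 in Cre plus livers and 7.59 to 8.13 in Cre minus livers. At 0 h the erythroid ranges did overlap, 6.87 to 7.35 in Cre plus livers and 7.16 to 8.08 in Cre minus livers. Hepatocyte markers at 40 h had mean levels of 11.48 to 11.92 in Cre plus livers and 11.65 to 11.87 in Cre minus livers, with 1 of 7 called lower and 0 higher. Their part in the differences of the proteasome genes was not tested.

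Whether the genotype difference itself changed from 0 h was tested as an interaction, and no proteasome gene was called by limma. At 20 h 0 genes were called, against 0% of all tested probe sets, and 0 had an unadjusted p under 0.05 against 1.43%. At 30 h 0 were called, against 0.0108%, and 0 had an unadjusted p under 0.05 against 4.42%. At 40 h 0 were called, against 0.584%, and 4 had an unadjusted p under 0.05 against 6.09%. Those were Psma6 at 0.50, Psmc1 at 0.47 and Psmd3 at 0.45, higher, and Psmc3ip, lower, from which nothing is read. The median interaction at 40 h was 0.21 with 26 of 34 positive, 0.47 for the ATPases and 0.19 for the core genes.

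The mean of the core genes minus that of the tested regulatory genes gives the balance of the 2 sides in each liver, as a difference of log2 deviations. The regulatory mean takes in the chaperones Psmd5, Psmd9 and Psmd10, and also Psmc3ip, which is no subunit. Psmc3ip was highest in the Cre minus livers of 40 h, which lowers the balance in that group. A balance of the subunits alone is not given here. At 40 h the balance ranged from -0.12 to 0.02 in the 5 Cre plus livers and from 0.08 to 0.24 in the 4 Cre minus livers. These groups did not overlap. In the other groups it ranged from -0.12 to 0.08 in Cre plus livers and from -0.16 to 0.10 in Cre minus livers. Its mean was higher in PHX3 than in PHX2 in all 8 groups, also at 40 h, where it was 0.012 in PHX3 and -0.078 in PHX2 in Cre plus livers, and in Cre minus livers 0.14 in PHX3 and 0.076 in PHX2. Of the arrays at 40 h, 3 of 5 Cre plus and 3 of 4 Cre minus were PHX3, and the part of batch in this separation was not tested.

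For the genes with several probe sets, the others did not always follow the one chosen. At 20 h in Cre minus livers, the second probe set of Psmb5 differed from 0 h by -0.08 where the chosen one differed by 0.34, and that of Psmb4 by -0.07 where the chosen one differed by 0.26. A further probe set of Psmc3, an ATPase, was called higher in Cre plus livers at 40 h than at 0 h, at 0.50 (limma adjusted p = 0.0349), where the chosen one differed by 0.37 and the third by 0.19. Psmd11, the chosen probe set of which differed by 0.37 between genotypes at 40 h, had others at 0.47 and -0.05. By their suffixes, the chosen probe sets of Psma3, Psmb4, Psmb5, Psmb7, Psmc3 and Psmd12 can also bind related transcripts. That of Psmd9 carries a suffix of another kind (r).

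Of the 3 inducible subunits, 2 were called lower after partial hepatectomy. The share of all tested probe sets called lower against 0 h is not given here. These falls, and those of Psme1 below, are therefore not set against how common falls were. Psmb8, the counterpart of Psmb5, fell in Cre plus livers by 0.86 ± 0.24 at 20 h, by 0.89 ± 0.26 at 30 h and by 1.13 ± 0.23 at 40 h (SE, limma adjusted p = 0.0249, 0.032 and 0.00288), and in Cre minus livers by 0.99 ± 0.24 at both 20 h and 30 h (adjusted p = 0.0134 and 0.026). Psmb9, the counterpart of Psmb6, fell in Cre plus livers by 1.07 at 20 h and 0.87 at 30 h, and in Cre minus livers by 0.82 and 0.88. At 40 h Psmb9 was not called against 0 h. It averaged 7.34 against 8.01 in Cre plus livers and 8.14 against 8.11 in Cre minus livers. Psmb10, the counterpart of Psmb7, was not called, but its group means were also lower at every later time. In Cre plus livers it averaged 8.80 at 0 h and 8.34, 8.40 and 8.33 at 20, 30 and 40 h. In Cre minus livers it averaged 8.70 at 0 h and 8.31, 8.44 and 8.54 at those times. The mean level of 6 tested interferon response genes in Cre plus livers was 7.74 at 0 h, then 6.88, 7.17 and 6.88. In Cre minus livers it was 7.54 at 0 h, then 6.94, 7.10 and 7.17 (SD of 0.27 to 0.74 over the 8 groups). Whether the injection had raised the levels at 0 h was not tested. At 40 h Psmb8 averaged 7.38 ± 0.50 in Cre plus livers (n = 5) and 8.15 ± 0.55 in Cre minus livers (SD, n = 4), a limma difference of -0.77 ± 0.23 (adjusted p = 0.0487) that was 0.01 within PHX2 and -1.06 within PHX3. When single livers were left out, the Psmb8 fall in Cre plus livers at 40 h and the Psmb9 fall in Cre plus livers at 20 h were called in every fit. The Psmb8 fall in Cre minus livers at 20 h was lost without 0 h replicate C (adjusted p = 0.0533), and its genotype difference at 40 h without Cre plus 40 h replicate B or E or Cre minus 40 h replicate A, B or C, with limma adjusted p up to 0.217. That genotype call was also lost in 4 of 9 other settings, among them no filter and median centring (limma adjusted p up to 0.335). The other 6 calls of Psmb8 and Psmb9 were each lost in 4 to 7 fits that left out a liver, with adjusted p up to 0.191.

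**Figure D5:**
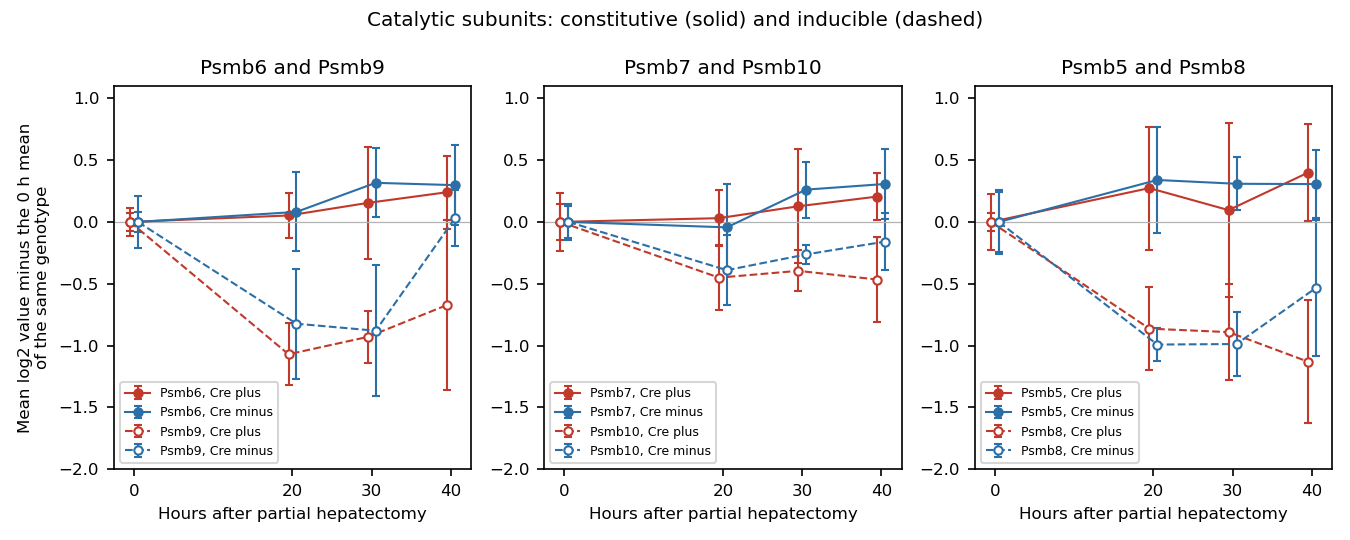
Each panel pairs a constitutive catalytic subunit (filled circles, solid line) with its inducible counterpart (open circles, dashed line), as group means of log2 values minus the 0 h mean of the same genotype, with the SD of the group as bars (n = 3 to 5), Cre plus red and Cre minus blue. Psmb8 and Psmb9 lie below 0 at 20 h and 30 h in both genotypes. The means of Psmb5, Psmb6 and Psmb7 lie above 0 at 30 h and 40 h in both. For the Cre plus 30 h group those means rest on replicate A, at 9.42, 10.15 and 9.27. The Cre plus means at 0 h were 8.53, 9.47 and 8.62. Replicates B and C of that 30 h group lay below them, at 8.38 and 8.07 (Psmb5), 9.33 and 9.40 (Psmb6), and 8.47 and 8.48 (Psmb7).

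Other genes of the pathway gave few calls. Of 3 tested activator and inhibitor genes, Psme1, a subunit of the activator that interferon induces, fell in Cre plus livers by 0.56 at 20 h and 0.54 at 40 h and in Cre minus livers by 0.51, 0.57 and 0.43 at 20, 30 and 40 h. The 2 calls in Cre plus livers and that of 20 h in Cre minus livers held when single livers were left out, and those of 30 h and 40 h in Cre minus livers were lost in 2 and 7 of 8 such fits. With the mean of all Psme1 probe sets the falls were smaller, from 0.21 to 0.31, and that of 30 h in Cre minus livers was lost (limma adjusted p = 0.104). The call in Cre plus livers at 40 h was lost in the fit to only the arrays compared (adjusted p = 0.0604), and that of 40 h in Cre minus livers under quantile normalization and with no batch term. Psme3, a subunit of a nuclear activator, was higher in Cre plus than in Cre minus livers at 40 h by 0.61 ± 0.17 (SE, limma adjusted p = 0.0364), a call lost without Cre plus 40 h replicate B or E or Cre minus 40 h replicate A, B or C. The Psme3 call was also lost with no batch term, with the replicate block and in the fit to only the arrays compared (limma adjusted p up to 0.279). Of 5 tested core assembly chaperones, 1 was called: Pomp, which helps to join the half-barrels, averaged 9.13 ± 0.09 in Cre plus livers at 40 h (n = 5) and 9.54 ± 0.16 in Cre minus livers (SD, n = 4). Its difference was -0.41 ± 0.08 (SE, limma adjusted p = 0.00163), -0.44 within PHX2 and -0.41 within PHX3, and the call held when any single liver was left out, though not in the fit to only the arrays compared (adjusted p = 0.0799).

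Of 4 tested genes of the regulatory particle under other symbols, Usp14, a deubiquitinase bound to the particle, rose by 0.48 at 40 h in Cre plus livers and by 0.54 at 20 h in Cre minus livers (limma adjusted p = 0.0494 and 0.0458), calls lost in 8 of 9 and 8 of 8 fits that left out a liver. Ecpas, which tethers core to regulatory particle, was higher in Cre plus than in Cre minus livers at 40 h by 0.56 ± 0.13 (SE, adjusted p = 0.00975), a call lost without Cre minus 40 h replicate A (0.0660) and in the fit to only the arrays compared (0.144). Of 4 tested genes that deliver substrates, such as Vcp, and of 5 that regulate proteasome genes, such as Nfe2l1 and Nfe2l2, 0 were called by limma in any comparison, with 0 to 2 genes of each list at an unadjusted p under 0.05. Of 5 listed genes of ubiquitin and its activation, 0 had a probe set of their own.

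The RefSeq table held promoters for 29 of the 35 genes. On either strand, TGACNNNGC, the core of the antioxidant response element that Nfe2l1 and its relatives bind, was found in those of 5 genes, 17.24%, against 12.39% of 32851 promoters of the same length. CCAAT, the box that NF-Y binds, was found in 12 genes, 41.38%, against 37.41%. No gene had both, which 4.368% of all promoters did. Among core genes 2 of 11 had TGACNNNGC and 6 of 11 CCAAT, and among regulatory genes 3 of 18 and 6 of 18. The units differ: the 29 genes had 31 promoters and a gene counted with any of them, while the 32851 were counted singly. Psma6 and Psmc2 had more than 1 promoter, which favours the genes. The 12 genes with CCAAT include Psmc3ip, which is no subunit. Of the genes printed above, Psmb5 and Psmd9 had the first motif, Psma6 and Psmd14 the second, and Psmd8 neither. A match says only that these letters stand in the window.

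Outside the set, the genes whose values over the 32 livers were most like the mean of the proteasome genes were Nmt1 (Pearson correlation 0.889), Cops5 (0.887), Pno1 (0.885) and Tpt1 (0.855). Cops5 is the catalytic subunit of the COP9 signalosome. These values share the arrays and the batches, and are a description over the livers.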

How the data were processed

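RNA of 32 mouse livers was measured on 1-colour Affymetrix arrays. The deposited table held RMA values, per the submitters' processing notes, with no version given in the sources used here. Their range, 2.3 to 14.12, was taken to mean a log2 scale, and the values were used as deposited. Of 12488 probe sets, 66 were controls, 10833 were annotated to 1 gene, 396 to several and 1193 to none. Annotation symbols needed no update (0 changed).

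Probe sets above the 30th percentile of their own array on at least 3 arrays were tested, 9249 in all. The limma package (3.58.1, R 4.3.3) fitted the 8 groups of time and genotype with batch as a term over all 32 arrays, and p-values were adjusted by Benjamini-Hochberg within each comparison. Groups came from the labels. The members and gene lists were chosen with earlier results of these data known. Any member could be named, those called first by the size of their difference, then the genes of the pathway lists in the same order, and the 4 genes most like the members' mean. Alternatives were quantile normalization, median centring, no filter, no batch term, array weights, a replicate block, only the arrays compared, the mean of a gene's probe sets and leaving out each liver. Leaving out the 3 livers that correlate under 0.95 with their group was chosen after seeing the data. Replicate letters shared by groups did not pair samples: deviations of same-letter livers correlated at 0.0416 on average (105 pairs, -0.506 to 0.597) and others at -0.0138. RefSeq promoters were searched on both strands with Python 3.11.15, and figures were drawn with matplotlib 3.10.9.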

Additional observations from a re-analysis of the deposited data

Results flagged for a closer look

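Within groups of 4 or 5 livers, Dixon's criterion singled out 11 of 238 sets of values of the 34 tested genes, where chance gives about 1 in 20. Only some of the 11 are given here. Psmd3 in Cre minus 40 h replicate D was 9.03, against 8.51 to 8.55 in the other livers of its group. In Cre minus 30 h replicate C it was 9.77, against 9.24 to 9.26. Psmb6 in Cre plus 40 h replicate D was 9.20, against 9.76 to 9.94 in the other livers of its group. Psmc3ip in Cre minus 0 h replicate D was 4.74, against 4.17 to 4.23. Psmd9 in Cre minus 30 h replicate B was 8.80, against 7.95 to 7.99. For the balance of core over regulatory genes, Cre minus 40 h replicate B stood at 0.243, against 0.0764 to 0.0887 in the other livers of that group.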

How the results depend on the processing

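Values within single batches are set aside in this paragraph. Between the batches the median for genotype at 30 h had opposite signs, and the called genotype difference of Psmb8 at 40 h turned its sign within PHX2. No called difference turned its sign under the other alternatives run. The median of the 34 genes kept its sign throughout against 0 h, except in Cre minus livers at 40 h (-0.05 to 0.10), and for genotype at 40 h (0.10 to 0.26), while for genotype at 30 h it ran from -0.26 to 0.06. Counts of called genes moved more, and are given against 0 h as Cre plus at 20, 30 and 40 h and then Cre minus at the same times. Array weights gave 13 and 12 in Cre plus livers at 20 and 30 h (all higher at 20 h, 9 higher and 3 lower at 30 h), 5, 7 and 4 in Cre minus livers (all higher at 20 and 30 h, 2 higher and 2 lower at 40 h), 9 between genotypes at 30 h (all lower in Cre plus livers) and 3 for the interaction at 30 h (all negative). Fits on only the arrays of the groups compared gave 4, 5 and 1 in Cre plus livers, 8, 0 and 3 in Cre minus livers (1 of the 3 lower), and 1 between genotypes at 40 h (lower). Quantile normalization gave 2, 5 and 6 in Cre plus livers and 3 in Cre minus livers at 20 h. The replicate block, whose letters share only a name, gave 3, 3 and 1 in Cre plus livers and 3 and 2 in Cre minus livers at 20 and 30 h. The mean of all probe sets of a gene gave 0 in Cre minus livers at 40 h, since Psmc3ip did not pass the filter there, and 1 between genotypes at 40 h (higher). Without the 3 livers under 0.95, chosen after seeing the data, the counts were 2, 2 (1 higher, 1 lower) and 6 in Cre plus livers, 3 and 0 in Cre minus livers at 20 and 30 h, and 2 between genotypes at 30 h (both lower). When each liver was left out in turn, counts ranged from 0 to 4, 0 to 2 and 1 to 5 in Cre plus livers and from 1 to 2, 0 to 2 and 0 to 1 in Cre minus livers. Between genotypes they were 0 at 0, 20 and 30 h and 1 to 5 at 40 h, and for interactions 0 at 20 and 30 h and 0 to 1 at 40 h. The cause of these differences was not tested. No filter, median centring and no batch term left each count within 1.5 times. Probe sets near the 30th percentile of their array, such as those of Psmc3ip and Psmc4, carry little signal over background.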
